A study of Homo sapiens with 114 samples.

Results

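HK-2 cells, an immortalized line of human kidney proximal tubule epithelium, were exposed to the low dose of the compound labelled Nnm for 48 h and compared with vehicle-treated cultures of the same time. The comparison used 6 of the 114 arrays of the series, namely 3 biological replicates of the low dose and 3 of the controls, selected by their labels. These controls also served Kbr and the high dose of Nnm. The wider study profiled HK-2 cells under several compounds in 38 groups of 3 Affymetrix arrays. The labels give the dose only as low and the compound only as Nnm. All cultures were grown in the same medium, which held glucose, epidermal growth factor, hydrocortisone, insulin, transferrin and selenite, and were treated near confluence. HK-2 is a single line, so the replicates are cultures and not donors.

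Proximal tubule cells burn fatty acids and other fuels in mitochondria to drive solute reabsorption, and immortalized tubular lines use more glucose. TXNIP and ARRDC4 are arrestin-like proteins that restrain glucose uptake at the cell surface. Their genes are textbook targets of MondoA (encoded by MLXIP), a factor that senses glucose phosphates, pairs with MLX and binds CACGTG-like carbohydrate response elements. The SLC16 family carries monocarboxylates such as lactate, and some members carry other solutes.

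The promoters of the rising genes for which such letters were found are shown here because the arrestin and transporter genes were among the largest rises. Sequences are those of RefSeq on GRCh38.p14, from 250 bases before to 50 after each start, 5′ to 3′ on the strand of the gene. Capitals mark CACGTG, or in TXNIP a pair of CACGAG copies with the 5 bases between them. Positions are chr1:145996530-145996829 on the minus strand for TXNIP, chr15:97960453-97960752 on the plus strand for ARRDC4 and chr10:59710030-59710329 on the minus strand for SLC16A9.
TXNIP: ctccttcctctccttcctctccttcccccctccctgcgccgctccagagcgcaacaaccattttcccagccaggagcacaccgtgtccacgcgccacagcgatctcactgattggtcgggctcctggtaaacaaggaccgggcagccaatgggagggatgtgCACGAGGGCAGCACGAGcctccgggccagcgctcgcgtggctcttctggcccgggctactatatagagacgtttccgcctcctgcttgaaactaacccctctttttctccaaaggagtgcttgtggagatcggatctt
ARRDC4: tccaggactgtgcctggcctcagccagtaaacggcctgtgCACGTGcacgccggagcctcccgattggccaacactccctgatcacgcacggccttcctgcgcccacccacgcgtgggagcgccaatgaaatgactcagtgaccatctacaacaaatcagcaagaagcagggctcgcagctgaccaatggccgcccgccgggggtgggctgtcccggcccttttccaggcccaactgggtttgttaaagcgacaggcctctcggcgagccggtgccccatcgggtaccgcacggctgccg
SLC16A9: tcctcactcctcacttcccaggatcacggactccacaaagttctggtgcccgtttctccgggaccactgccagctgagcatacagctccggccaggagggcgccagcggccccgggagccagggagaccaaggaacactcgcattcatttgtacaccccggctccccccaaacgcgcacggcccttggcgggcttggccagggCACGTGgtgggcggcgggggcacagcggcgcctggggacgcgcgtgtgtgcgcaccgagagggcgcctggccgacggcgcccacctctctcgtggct
CACGTG, searched on both strands, occurred in 2548 of 35116 promoters of this length (7.26%). In ARRDC4 it began 210 bases before the start and in SLC16A9 47 bases before. The TXNIP pair began 88 bases before the start, and a pair of CACGAG copies at that spacing, letters chosen after seeing the sequence, occurred in 2 of the 35116 promoters. The looser pair of CACGNG copies occurred in 20 of them, and a pair of CACGTG copies in 2. The alternative promoters of TXNIP and SLC16A9, and those of SLC16A14, ARRDC3 and MLXIP, held none of these letters. These matches are descriptions of the sequence and not measured binding.

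Values are deposited log2 expression values, and a change is the difference of group means in log2 units ± standard error, from a limma fit over the 30 arrays of Nnm, Kbr and their controls. A change was called at a Benjamini-Hochberg adjusted p under 0.05 over the 11036 genes tested. A level below log2 4 is named background, and a change from or to background depends on the background correction. In bulk RNA, fewer cells of a kind and less RNA per cell cannot be told apart. Proximal tubule identity was partial in these cultures. PAX8 and the cadherin gene CDH6 were well above background, whereas the other 9 of 11 markers, among them LRP2, CUBN, SLC34A1 and AQP1, lay below log2 4 on all 6 arrays. All 5 epithelial markers were expressed. The 5 endothelial and 4 leukocyte markers were at background, with summed levels of 13.5 to 13.6 against 13.7 to 14.2 and of 9.63 to 9.72 against 9.64 to 9.74 in treated and control arrays. The endothelial sums did not overlap. The sums of the proximal tubule markers were 47.9 to 49.5 against 46.4 to 47.0 and those of 6 collecting duct markers 27.1 to 28.2 against 26.6 to 26.9, without overlap. Among their members CDH6 changed by 1.00 ± 0.60 and was not called (limma adjusted p = 0.282). PAX8 rose by 0.64 ± 0.16 and the sodium channel gene SCNN1A by 0.82 ± 0.21 (limma adjusted p = 0.0116 and 0.0138). Both calls were lost without Nnm low replicate 1 (limma adjusted p = 0.0763 and 0.0838), Nnm low replicate 3 (0.0727 and 0.0773) or control replicate 2 (0.067 and 0.0622). The part of these shifts in the results was not tested. Among 6 fibroblast markers COL1A1, DCN and LUM were expressed, and the sums were 37.7 to 37.9 against 37.3 to 38.1. Upper quartiles of all probe sets were 7.07 to 7.10 in the treated and 7.03 to 7.07 in the control arrays (exact two-sided permutation p = 0.1, the smallest that 3 against 3 allows). The ACTB 3′ minus 5′ difference was 1.20 and 1.19 in the treated and control arrays of replicate 2 and 0.81 to 0.91 on the other 4, and its part in the results was not tested.

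The low dose of Nnm changed 1558 genes (14.1% of those tested), of which 926 rose (8.39%) and 632 fell (5.73%). At least 2-fold changes numbered 463 (4.20%), with 325 rises (2.94%) and 138 falls (1.25%). Of the 926 rises 80 had a control mean below log2 4, and 12 of the falls had a treated mean below it. Treated and control arrays did not overlap for 1486 of the called genes and overlapped for 72. Over all genes tested the treated arrays were all above the controls for 20.0% and all below for 15.6%. Same-numbered cultures varied together, and with the replicate number as a block limma called 2948 genes, 1641 higher (14.9%) and 1307 lower (11.8%), including all of the 1558. The count depended on single arrays. It was 566 and 737 without Nnm low replicates 1 and 3, 906 and 806 without control replicates 1 and 3, and 647 when only these 6 arrays were fitted. Leaving out Nnm low replicate 2 gave 2114.

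TXNIP showed the largest rise of the comparison. Its log2 level was 12.45, 11.60 and 12.10 in Nnm low replicates 1, 2 and 3, and 4.14, 6.51 and 6.95 in controls 1, 2 and 3. All treated arrays lay far above all controls, and the control cultures themselves spanned more than the treated ones, with an SD of 1.51 against 0.43 (n = 3 each). The rise was 6.18 ± 0.53, or 72.7-fold, with a limma adjusted p of 3.9e-07, and the 3 detected TXNIP probe sets gave rises of 5.80 to 6.18.

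The related arrestin ARRDC4 reached 5.67, 4.67 and 5.63 from background levels of 2.97, 3.16 and 2.58 in the controls. Replicate 2 was the lowest of the treated arrays and still stood above every control. The rise was 2.42 ± 0.55 (limma adjusted p = 0.00544). ARRDC3, an arrestin that promotes receptor sorting, was at 11.33, 10.74 and 11.10 against 8.86, 9.38 and 9.00, a rise of 1.98 ± 0.21 (limma adjusted p = 4.95e-06). MLXIP itself rose by 0.92 ± 0.31 at adjusted p = 0.0456 in limma, with treated replicate 2 inside the control range. Its call ended without Nnm low replicate 1, Nnm low replicate 3, control replicate 2 or control replicate 3 (limma adjusted p = 0.251, 0.124, 0.086 and 0.203). Its partner MLX changed by −0.10 ± 0.16 and ARRDC2 by −0.27 ± 0.53, and neither was called (limma adjusted p = 0.727 and 0.783). In all, 4 of the 6 tested members of this list rose and 0 fell, beside 8.39% and 5.73% of all genes, and the list median was 1.45 beside 0.018 over all genes. This list, like those below, was chosen with earlier results of these data known, so its shares are a description and not a test.

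Among the SLC16 transporters, SLC16A14 and SLC16A9 rose from controls below the background limit. SLC16A14, whose substrate is poorly known, was at 9.22, 7.08 and 9.30 in the treated arrays and at 2.51, 2.54 and 2.42 in the controls. It rose by 6.04 ± 0.73, the largest rise after TXNIP (limma adjusted p = 1.92e-05). SLC16A9, a carnitine transporter gene, was at 8.02, 4.25 and 6.99 against 2.27, 2.27 and 2.28. Replicate 2 was barely above the background limit, and the rise of 4.15 ± 0.96 (limma adjusted p = 0.00618) was not called without Nnm low replicate 1, at 3.35 and adjusted p = 0.0614. EMB, which encodes embigin, a chaperone of monocarboxylate transporters, rose by 1.40 ± 0.21 from controls of 7.04, 7.22 and 7.04 to 8.34, 8.19 and 8.97, without overlap. The other 4 tested members were not called: SLC16A4 changed by 0.74 ± 0.32, SLC16A5 by −0.67 ± 0.36, SLC16A7 by −0.42 ± 0.16 and the chaperone gene BSG by −0.23 ± 0.33. Of the 15 genes listed 8 had a probe set with 1 gene symbol and 7 were tested, so the counts do not cover the family. The list of 7 tested members held 3 rises, the chaperone gene EMB among them (42.9%, beside 8.39% of all genes), and 0 falls, with a median of 0.74. With the replicate block it held 3 rises and 1 fall, and without the arrays numbered 2 4 rises and 2 falls, beside 15.3% and 12.9% of all genes.

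**Figure D1:**
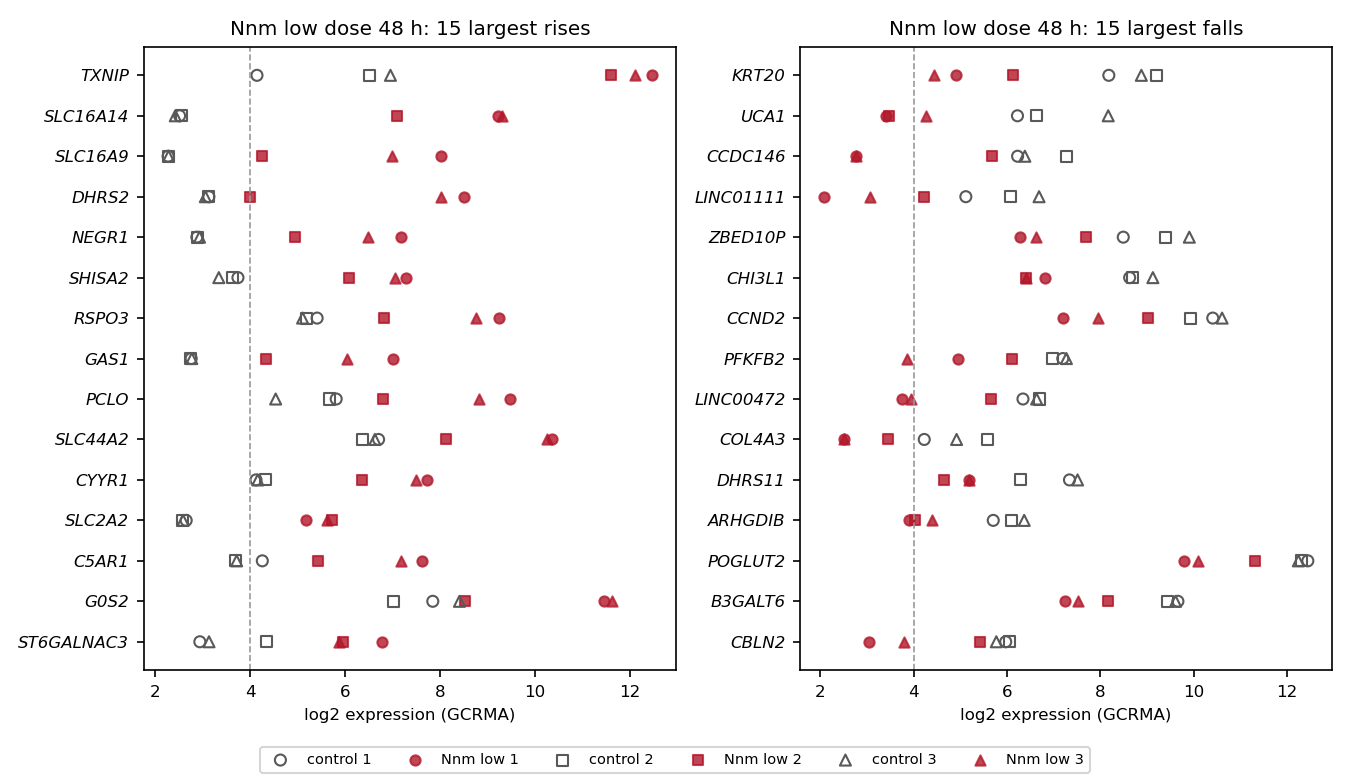
Deposited log2 expression of the 15 most increased and the 15 most decreased genes called without overlap between groups, in Nnm low 48 h (filled) and control (open) replicates 1 (circles), 2 (squares) and 3 (triangles), with the dashed line at log2 4. Replicate 2 of the treated cultures (filled squares) lies nearest the controls for most genes, as in SLC16A9 at 4.25 beside 8.02 and 6.99, but not for SLC2A2 at 5.72.

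Other large rises included secreted and membrane proteins. SHISA2, an endoplasmic reticulum protein that restrains Wnt and FGF receptors, reached 7.29, 6.07 and 7.06 from background levels of 3.74, 3.63 and 3.33, a rise of 3.24 ± 0.38 (limma adjusted p = 1.65e-05). GAS1, a growth arrest gene and hedgehog co-receptor, went from 2.75, 2.74 and 2.77 to 7.01, 4.34 and 6.03, a rise of 3.04 ± 0.60 from background. In both genes replicate 2 was the lowest treated array and lay above all controls. The choline transporter gene SLC44A2 rose by 3.02 ± 0.57, from 6.70, 6.35 and 6.62 to 10.36, 8.13 and 10.25. CYYR1 rose by 2.99 ± 0.46 and the sialyltransferase gene ST6GALNAC3 by 2.73 ± 0.56. CA12, a carbonic anhydrase of the cell membrane, rose by 2.62 ± 0.55 to 12.63, 10.94 and 12.15 from 9.96, 9.47 and 8.45, with 5 detected probe sets between 2.32 and 2.79. SLC2A2, the GLUT2 glucose transporter of liver, islets and proximal tubule, was at background in all controls, at 2.65, 2.57 and 2.58, and at 5.17, 5.72 and 5.62 after Nnm. Here replicate 2 was the highest treated array, as it was at the high dose, where the arrays were at 2.81, 6.56 and 3.12. The rise was 2.90 ± 0.78 (limma adjusted p = 0.0156), ending without Nnm low replicate 3 or control replicate 3 at adjusted p = 0.0567 and 0.0501.

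Of the 15 largest rises, 7 kept the call whichever of the 6 arrays was left out. The other 8 were SLC16A9, SLC2A2, DHRS2, NEGR1, RSPO3, PCLO, C5AR1 and G0S2. DHRS2, a short-chain reductase gene, rose by 3.73 ± 1.13 from background and was not called without Nnm low replicate 1 or 3 or any single control (limma adjusted p from 0.0677 to 0.182). The Wnt enhancer gene RSPO3 rose by 3.04 ± 0.82 and the lipolysis inhibitor gene G0S2 by 2.78 ± 0.83. RSPO3 was not called without Nnm low replicates 1 or 3 or control replicate 3 (limma adjusted p = 0.105, 0.0696 and 0.0536), and G0S2 without Nnm low replicates 1 or 3 or control replicates 1 or 2 (0.154, 0.141, 0.0685 and 0.0999). NEGR1 rose by 3.30 ± 0.84 from background, but its second detected probe set gave 1.24. The complement receptor gene C5AR1 rose by 2.86 ± 0.72 from controls of 4.25, 3.68 and 3.71, and the synaptic scaffold gene PCLO by 3.02 ± 0.69. Without Nnm low replicate 1 the adjusted p of NEGR1, C5AR1 and PCLO in limma was 0.0821, 0.0805 and 0.058, and C5AR1 was also lost without Nnm low replicate 3 (0.0534).

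The largest fall was in KRT20, a keratin of differentiated epithelium that also marks injured tubules. It was at 4.91, 6.13 and 4.43 in the treated arrays and at 8.18, 9.20 and 8.88 in the controls. The treated replicate 2 lost less than the others, but all treated arrays lay below all controls, and the change was −3.60 ± 0.63 (limma adjusted p = 0.000838). The long noncoding RNA UCA1 fell to background in 2 of the 3 treated arrays, at 3.40, 3.48 and 4.26 against 6.23, 6.63 and 8.17, a change of −3.30 ± 0.71. CHI3L1, a secreted chitinase-like protein, changed by −2.27 ± 0.39 and was one of the falls in which replicate 2 matched the others, at 6.81, 6.41 and 6.41 against 8.63, 8.68 and 9.13. PFKFB2, an enzyme that makes the main allosteric activator of glycolysis, was at 4.94, 6.11 and 3.85 against 7.20, 6.97 and 7.27, a change of −2.18 ± 0.39.

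COL4A3, a collagen IV chain of the glomerular basement membrane, fell to background by 2.09 ± 0.41. POGLUT2, a glucosyltransferase of the endoplasmic reticulum, was at 9.80, 11.32 and 10.10 against 12.45, 12.32 and 12.25, without overlap. The galactosyltransferase gene B3GALT6 changed by −1.93 ± 0.43, but its second detected probe set gave 0.18. Of the 15 largest falls 11 kept the call with any of the 6 arrays left out. The exceptions were CCDC146, which ended without Nnm low replicate 1 or 3 (limma adjusted p = 0.0587 and 0.0501), LINC01111, without Nnm low replicate 1 or control replicate 3 (0.0747 and 0.0509), and LINC00472 and CBLN2, each without Nnm low replicates 1 or 3 or any control (0.0593 to 0.156 and 0.0591 to 0.185).

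Many genes of mitochondrial energy production fell. Across 5 lists, namely the respiratory chain complexes, ATP synthase, the citric acid cycle with pyruvate entry and the mitochondrial ribosome, 43 of 117 tested members fell and 1 rose, beside 5.73% and 8.39% of all genes. With the replicate block 62 fell, beside 11.8%, and without the arrays numbered 2 65 fell, beside 12.9%. The changes were small, with list medians from −0.27 to −0.44 beside 0.018 over all genes. The citric acid cycle list, which includes pyruvate entry, had the lowest of these medians. PDHA1, a subunit of pyruvate dehydrogenase, was at 10.48, 11.08 and 10.60 against 11.76, 11.73 and 11.84, a change of −1.06 ± 0.19 (limma adjusted p = 0.000821), and all 3 of its probe sets fell. DLAT, the acetyl-transfer subunit of that complex, changed by −0.97 ± 0.15. Of 19 tested members of this list 10 fell and 0 rose, with a median of −0.44. SUCLG2 and DLST, enzymes of the cycle, changed by −0.85 ± 0.27 and −0.78 ± 0.19. Their calls ended without Nnm low replicate 3 (limma adjusted p = 0.182 and 0.0689), and that of SUCLG2 also without Nnm low replicate 1 or any control (0.0742 to 0.132).

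Of 27 tested complex I genes 10 fell and 0 rose, with a median of −0.29. NDUFS1, the largest complex I subunit, was at 10.04, 10.56 and 10.13 against 11.10, 11.22 and 11.26, without overlap, and changed by −0.95 ± 0.20. NDUFA8 changed by −0.58 ± 0.11. Of 21 tested genes of complexes II to IV with cytochrome c 8 fell and 0 rose, among them CYC1 by −0.75 ± 0.16, the cytochrome c gene CYCS by −0.68 ± 0.14 and UQCRC1 by −0.67 ± 0.14. SDHA, the succinate-oxidizing subunit, changed by −0.88 ± 0.21 and was not called without Nnm low replicate 1 (limma adjusted p = 0.0665).

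Of 14 tested ATP synthase genes 6 fell and 1 rose. The catalytic subunit gene ATP5F1B was at 11.64, 11.99 and 11.94 against 12.87, 12.60 and 12.83, a change of −0.91 ± 0.12 (limma adjusted p = 3.38e-05), the smallest adjusted p among the examples from these 5 lists. The ring subunit gene ATP5MC1 changed by −1.21 ± 0.30, a call lost without Nnm low replicate 1 (limma adjusted p = 0.098). Of 36 tested mitochondrial ribosome genes 9 fell and 0 rose, with MRPL2 at −1.17 ± 0.24 and MRPS23 at −0.63 ± 0.13, although a second MRPS23 probe set gave 0.24. In the 5 lists together, single arrays mattered as they did for all genes, and 29 of the 44 calls were lost in at least 1 fit without an array.

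**Figure D2:**
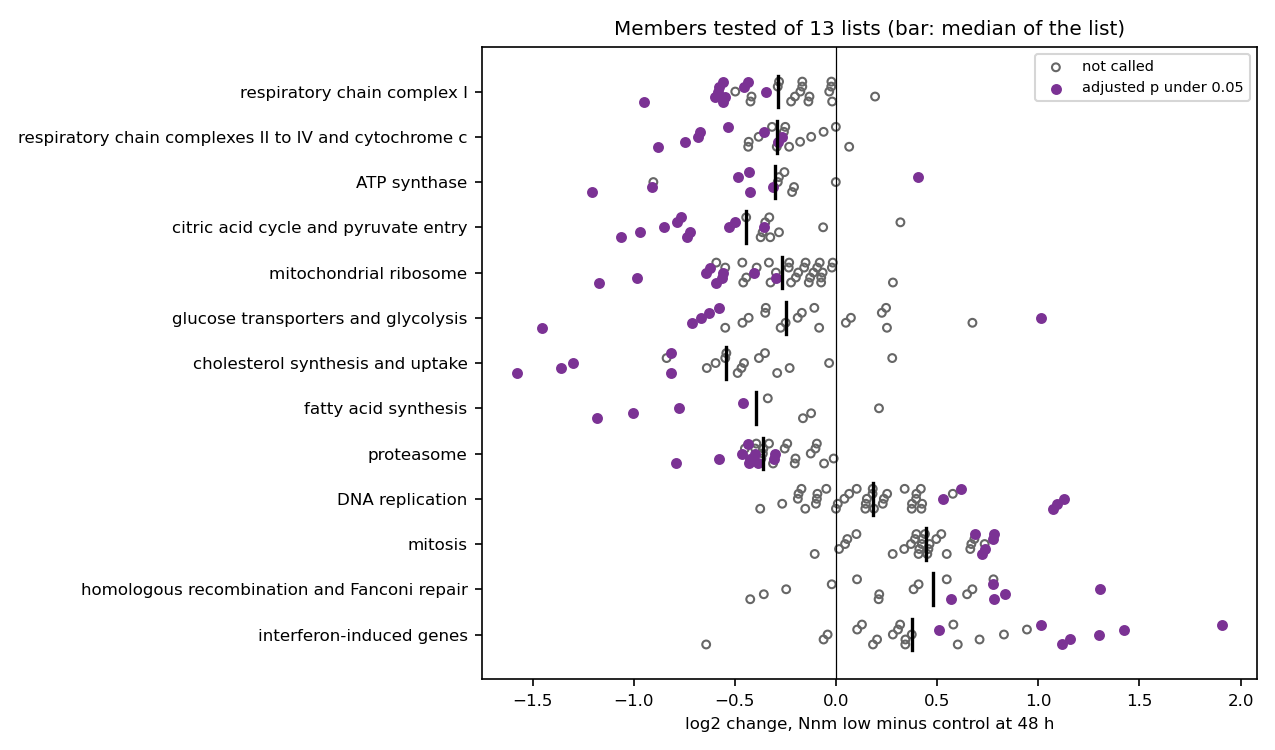
Log2 change (Nnm low minus control at 48 h, x axis) of each tested member of 13 gene lists, filled where called at adjusted p under 0.05, with a bar at the list median. The mitochondrial, cholesterol, fatty acid and proteasome lists lie mostly left of 0, with medians from −0.27 to −0.54, and the mitosis, repair and interferon lists to the right, from 0.37 to 0.48.

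Of 23 tested genes for glucose transport and glycolysis, with pyruvate dehydrogenase kinases, 5 fell (21.7%, beside 5.73% of all genes) and 1 rose (4.35%, beside 8.39%), with a median of −0.25. The replicate block gave 10 falls and 2 rises, beside 11.8% and 14.9%. The falls were 4 glycolytic enzyme genes and PDK1. The list did not hold the glucose transporter gene SLC2A2, which rose, or PFKFB2, which fell, so these counts leave both out. PDK1, a kinase that shuts pyruvate dehydrogenase, was at 7.08, 7.89 and 7.28 against 8.79, 8.81 and 9.00, and changed by −1.45 ± 0.23 (limma adjusted p = 0.000426). Its relative PDK4 rose instead, from 12.31, 12.75 and 12.75 to 13.92, 13.32 and 13.63, by 1.02 ± 0.28, with 3 probe sets between 1.02 and 1.94. That call ended without Nnm low replicate 1, Nnm low replicate 3 or control replicate 1 (limma adjusted p = 0.106, 0.0566 and 0.0829). The glycolytic enzyme gene PGAM1 changed by −0.67 ± 0.13.

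Several lipid synthesis genes fell. FASN, fatty acid synthase, was at 8.59, 8.61 and 8.75 against 10.11, 9.41 and 9.98, a change of −1.18 ± 0.21 (limma adjusted p = 0.000844) without overlap. SREBF1, the transcription factor of lipid synthesis, changed by −0.78 ± 0.19. Of 8 tested fatty acid synthesis genes 4 fell and 0 rose. Of 19 tested cholesterol genes 5 fell (26.3%, beside 5.73% of all genes) and 0 rose. With the replicate block 12 fell, beside 11.8%, and the list median was −0.54. The examples with the largest changes were MVD at −1.58 ± 0.49, TM7SF2 at −1.36 ± 0.43 and ACAT2 at −1.30 ± 0.33. All 3 were lost without Nnm low replicate 1 (limma adjusted p = 0.0835, 0.139 and 0.112) and without control replicate 3 (0.171, 0.0981 and 0.0544). MVD and TM7SF2 were also lost without control replicate 1 (0.144 and 0.124), MVD without Nnm low replicate 2 (0.147), and TM7SF2 without Nnm low replicate 3 (0.14) or control replicate 2 (0.0569).

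All 27 tested proteasome genes had negative changes, and 10 were called lower (37.0%, beside 5.73% of all genes), or 20 with the replicate block, beside 11.8%. The changes ran from −0.79 to −0.012 with a median of −0.36. PSMA3, a core subunit, changed by −0.79 ± 0.18, and PSMB3 by −0.58 ± 0.14. The former was lost without Nnm low replicate 1 (limma adjusted p = 0.0529), the latter also there (0.0786) and without control replicate 3 (0.0655). Of 28 tested ribosome biogenesis genes 7 fell and 1 rose, with a median of −0.37. UTP4, a small-subunit processome gene, changed by −0.94 ± 0.23, a call lost without Nnm low replicate 1 (limma adjusted p = 0.0734). The single rise was POLR1D, an RNA polymerase subunit, by 1.48 ± 0.33, one of whose other probe sets gave −0.54. Of 15 tested cytosolic tRNA synthetases 4 fell and 0 rose, and HARS1 changed by −0.58 ± 0.12.

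Stress-response lists showed few calls in the fit without the block, and the shares of some were near those over all genes. Of 14 tested heat shock genes limma called 0, with 0 at an unadjusted p under 0.05 and 1 rise with the replicate block. Of 8 metallothioneins it called 0, with 0 at an unadjusted p under 0.05 and 0 with the block. Of 26 ATF4 targets 1 fell (3.85%) and 0 rose, and of 23 endoplasmic reticulum chaperones 2 fell (8.70%) and 0 rose. Of 22 tested p53 targets 1 rose (4.55%) and 2 fell (9.09%), and the median was −0.010. Over all genes 8.39% rose and 5.73% fell. In limma 2 of the ATF4 targets, 7 of the chaperones and 7 of the p53 targets had an unadjusted p under 0.05. Of 22 tested NRF2 targets 2 rose (9.09%) and 1 fell (4.55%), near the shares over all genes. With the replicate block 9 of the 22 rose and 2 fell, beside 14.9% and 11.8% of all genes. The rises were TXNRD1, thioredoxin reductase, at 13.16, 12.27 and 13.16 against 11.57, 11.71 and 11.55, and the quinone reductase gene NQO1, by 1.26 ± 0.32 and 1.06 ± 0.25. Both were lost without Nnm low replicate 1 (limma adjusted p = 0.0795 and 0.0539) or replicate 3 (0.0671 and 0.0526). The fall was TXN, thioredoxin, by −0.38 ± 0.11, with overlapping arrays, and its other detected probe set gave −0.099. The TXN call was lost without Nnm low replicate 1 or 3 or control replicate 2 or 3 (limma adjusted p = 0.228, 0.0654, 0.073 and 0.123).

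Cell cycle genes were examined by phase. Of 16 tested genes for G1 cyclins and inhibitors of cyclin-dependent kinases 4 fell (25%, beside 5.73% of all genes) and 2 rose (12.5%, beside 8.39%), with a median of −0.17. CCND2 and CCND1, the D-type cyclins that start G1 progression, both fell. CCND2 was at 7.21, 9.03 and 7.95 against 10.41, 9.93 and 10.61, a change of −2.25 ± 0.41 (limma adjusted p = 0.00121), and its 4 detected probe sets ranged from −2.49 to −0.53. CCND1 was at 4.57, 5.94 and 5.23 against 6.65, 7.03 and 7.16, a change of −1.70 ± 0.54 that was called with all arrays (limma adjusted p = 0.0376) but not without Nnm low replicates 1 or 3 or any control (0.0653 to 0.198). CDKN1B, an inhibitor of cyclin-dependent kinases, rose by 0.86 ± 0.21, a call lost without Nnm low replicate 1 or control replicate 3 (limma adjusted p = 0.0753 and 0.0509).

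Of 30 tested mitosis genes 5 rose (16.7%, beside 8.39% of all genes) and 0 fell. With the replicate block 13 rose, beside 14.9%, and 29 of the 30 changes were positive, with a median of 0.45. MAD2L1, a spindle checkpoint protein, was at 11.95, 11.57 and 12.00 against 10.76, 11.18 and 11.37, a rise of 0.73 ± 0.17 (limma adjusted p = 0.00618) without overlap. KIF11, the motor that separates spindle poles, was at 10.51, 10.50 and 10.92 against 9.76, 9.93 and 10.06, a rise of 0.72 ± 0.20. The KIF11 call was lost without Nnm low replicate 3, control replicate 1 or control replicate 2 (limma adjusted p = 0.119, 0.0858 and 0.0501). Of 38 tested replication genes 5 rose (13.2%) and 0 fell, or 8 with the replicate block, with the licensing factor CDT1 at 1.13 ± 0.31. CDT1 was lost without Nnm low replicate 1 or 3 or control replicate 2 or 3 (limma adjusted p = 0.172, 0.0676, 0.0582 and 0.0571).

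Of 18 tested genes for homologous recombination and Fanconi repair 5 rose (27.8%, beside 8.39% of all genes) and 0 fell, or 10 and 0 with the replicate block, and the median was 0.48. Of the 5 calls 4 were lost in at least 1 fit without an array. FANCB, a subunit of the Fanconi core complex, was at 6.03, 5.46 and 6.37 against 4.11, 4.85 and 4.98. Its rise was 1.30 ± 0.30 (limma adjusted p = 0.00591) without overlap, and its 3 probe sets rose by 0.75 to 1.33. Among the 5 tested polyadenylated histone genes 3 fell and 0 rose, and H2BC12 changed by −1.40 ± 0.23 from 10.42, 10.15 and 9.80 to 8.58, 9.43 and 8.14.

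Of 25 tested interferon-induced genes 7 rose (28%, beside 8.39% of all genes) and 0 fell. With the replicate block 11 rose, beside 14.9%, and the median was 0.37. OASL, an antiviral sensor cofactor, was at 6.98, 6.54 and 7.78 against 4.58, 5.86 and 5.14, a rise of 1.91 ± 0.44 (limma adjusted p = 0.00591). IFIT2, which binds foreign RNA, rose by 1.42 ± 0.31 and the helicase gene DDX60 by 1.16 ± 0.23. In all 3 genes replicate 2 had the smallest difference from its own control, whose levels were the highest of the controls. Of 14 tested cytokine and chemokine genes 2 rose (14.3%) and 0 fell, beside 8.39% and 5.73% of all genes, with a median of −0.24. The 2 were NFKBIA, an inhibitor of NF-kappa-B, and IL18. With the replicate block 2 rose and 2 fell. NFKBIA was lost without Nnm low replicate 1 or 3 or control replicate 1 or 3 (limma adjusted p = 0.0574, 0.115, 0.0551 and 0.0639). IL18 was lost without Nnm low replicate 1 or control replicate 1 (limma adjusted p = 0.0536 and 0.0588).

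Of 8 tested genes of proximal tubule transport and identity 2 rose (25%, beside 8.39% of all genes) and 0 fell, namely DPP4 and PAX8. DPP4, a brush border peptidase, was at 12.94, 12.90 and 12.81 against 11.61, 11.99 and 11.56, a rise of 1.17 ± 0.26 (limma adjusted p = 0.00459), and its 3 probe sets rose by 1.12 to 1.33. Replicate 2 stood level with the other treated arrays. CGN, the tight junction protein cingulin, changed by −1.26 ± 0.34, the 1 fall among 13 tested junction genes, and was lost without Nnm low replicate 1 or 3 or control replicate 1 (limma adjusted p = 0.058, 0.0917 and 0.071). Of 12 tested cadherins and regulators of mesenchymal transition 1 rose and 0 fell, and with the replicate block 4 rose and 1 fell. Of 24 tested matrix genes 1 rose and 2 fell, and with the block 10 rose and 4 fell, beside 14.9% and 11.8% of all genes. Of 13 tested kidney injury markers CLU and TIMP1 rose by 0.57 ± 0.16 and 0.44 ± 0.10, and KRT20 fell. TIMP1 was lost without Nnm low replicate 3 (limma adjusted p = 0.0501), and CLU without Nnm low replicate 1 or 3 or control replicate 2 or 3 (0.13, 0.0589, 0.068 and 0.0932).

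**Figure D3:**
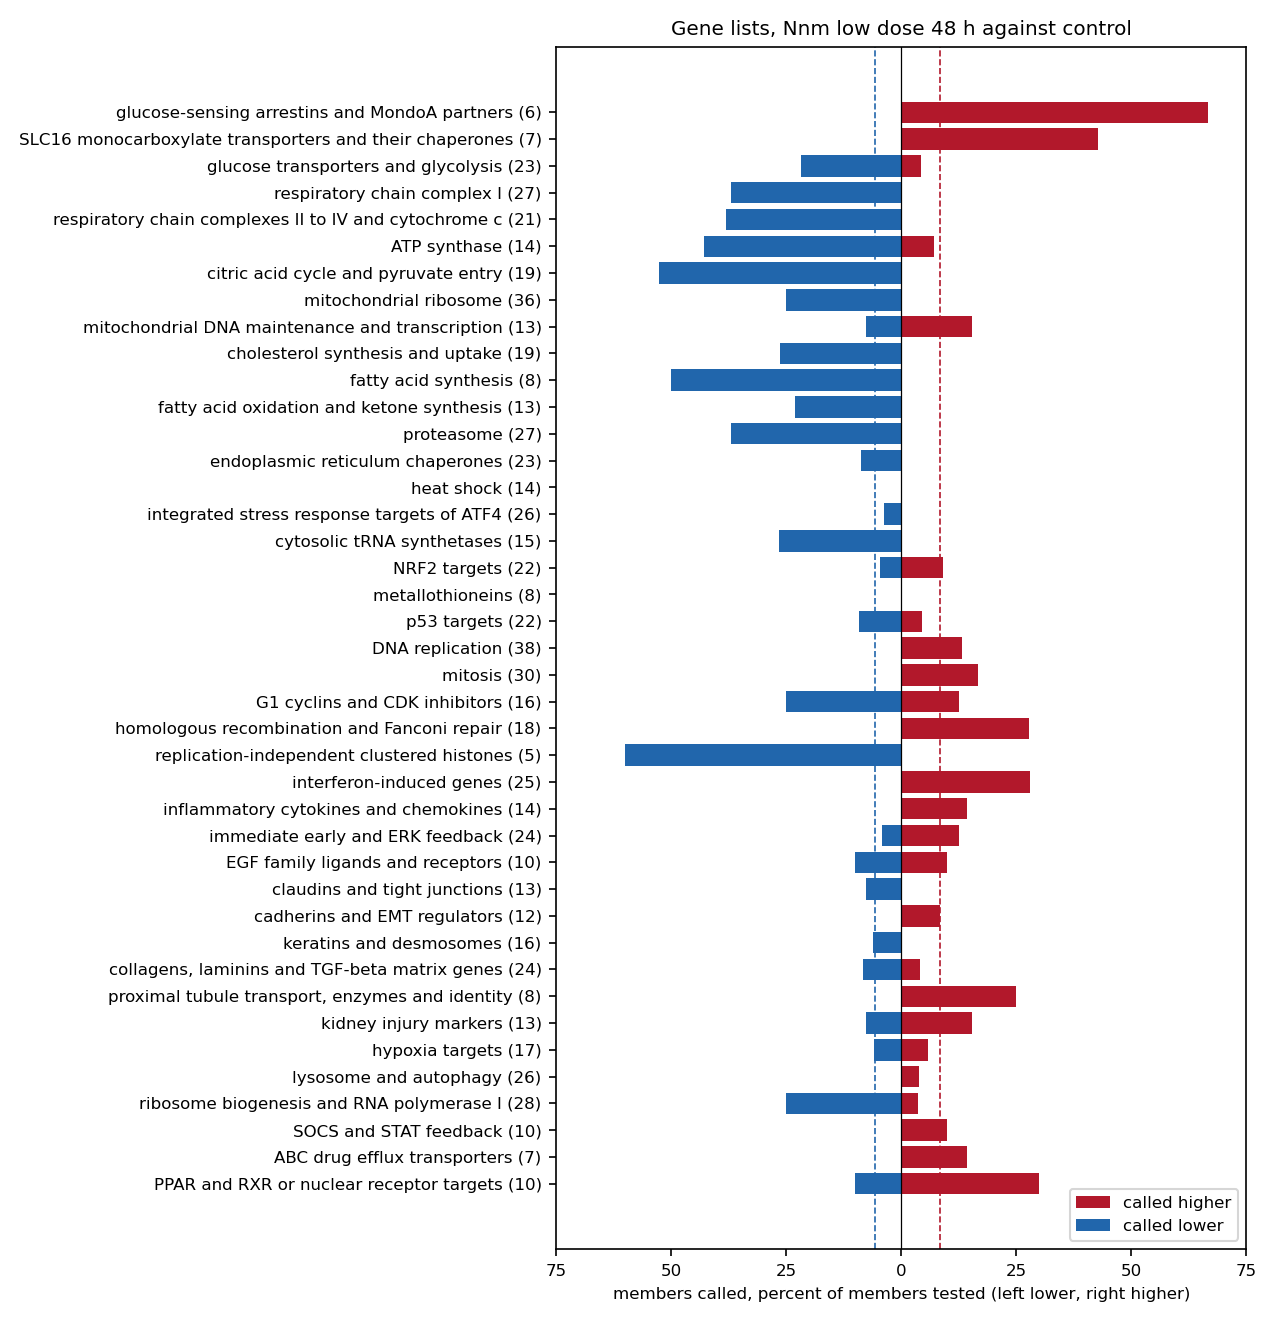
Share of tested members called higher (right, red) and lower (left, blue) at adjusted p under 0.05 in each gene list with at least 5 members tested, with the number tested in parentheses and dashed lines at the shares over all genes, 8.39% higher and 5.73% lower. The citric acid cycle list reaches 10 of 19 lower, and the heat shock and metallothionein lists show 0 calls.

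Replicate 2 of the low dose stood apart in size and kept the direction of most genes. Among the 463 called genes of at least 2-fold, its difference from control 2 was the smallest of the 3 same-numbered differences in 393, and had the opposite sign in 1. The median of its difference over the mean of replicates 1 and 3 was 52.0%. These genes were chosen on the same arrays, so the genes called in Nnm low at 24 h, a contrast of other arrays, were read as well. Both times share 1 fit and its estimate of the spread, so this reading is not fully independent. For the 1036 genes higher at 24 h the median 48 h differences were 0.75, 0.38 and 0.67 in replicates 1, 2 and 3, and for the 1008 lower genes −0.60, −0.25 and −0.60. Replicate 2 kept the direction in 93.3% and 87.0% of them, less often than replicate 1 (97.0% and 93.8%) and replicate 3 (96.1% and 97.4%). Genes called at 48 h without the arrays numbered 2 and then read in replicate 2 gave the same picture, with the direction kept in 1581 of 1692 higher and 1283 of 1426 lower genes.

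The smaller response of replicate 2 also occurred earlier. Genes called higher at 48 h had median differences of 0.60, 0.46 and 0.74 in Nnm low replicates 1, 2 and 3 at 24 h, and genes called lower −0.67, −0.40 and −0.64. Single genes departed from this. NR2F1-AS1, a long noncoding RNA, was at 4.40, 4.26 and 4.08 against background levels of 2.47, 2.47 and 2.48, and the thrombin receptor gene F2R at 9.81, 9.60 and 8.81 against 10.69, 10.89 and 10.45. At the other extreme ZFHX4-AS1 was at 3.86, 7.08 and 4.21 against 6.52, 7.36 and 7.56, with replicate 2 inside the control range. The protease gene CAPN5 was at 7.81, 4.80 and 7.33 against 4.16, 4.02 and 4.03, with replicate 2 above the controls but far below the others.

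**Figure D4:**
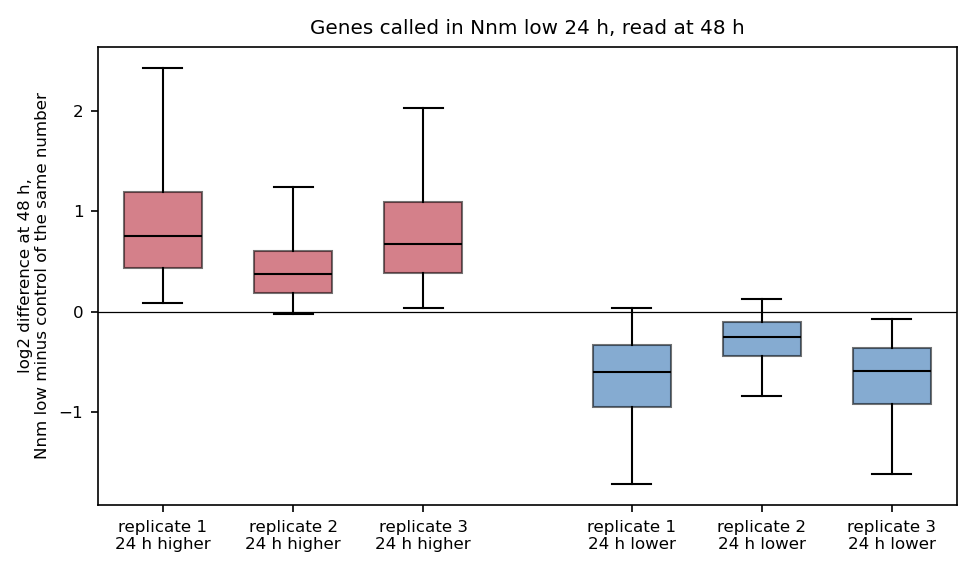
Log2 difference at 48 h between each Nnm low array and the control of the same number, for the 1036 genes called higher and the 1008 called lower in Nnm low at 24 h. Boxes span the quartiles with the median as a line, and whiskers the 5th to 95th percentiles. Replicate 2 has the median nearest 0 in both sets, 0.38 and −0.25.

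Doses were compared directly, as the difference between the high and the low dose of Nnm at 48 h, 3 arrays against 3. The array labelled high dose replicate 2 lay close to low dose replicate 2, and the files do not settle whether that culture received the dose on its label. The values that follow with all arrays take the label as given. In limma 0 of 11036 genes were called, 569 (5.16%) had an unadjusted p under 0.05, and the smallest adjusted p was 0.412. Without a filter 2 were called and with all arrays of the series in the fit 12. Against the shared controls, TXNIP changed by 6.38 at the high and 6.18 at the low dose, SLC16A14 by 6.26 and 6.04, and KRT20 by −3.43 and −3.60. The 95% intervals of high minus low were −0.89 to 1.28 for TXNIP, −1.29 to 1.72 for SLC16A14 and −1.13 to 1.47 for KRT20. Each of these intervals includes a 2-fold difference.

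The count of 0 rested on the array labelled high dose replicate 2. Without that array limma called 570 genes between the doses, and without low dose replicate 2 alone it called 1. Without all Nnm and control arrays numbered 2 it called 995 (9.02%), with 449 higher (4.07%) and 546 lower (4.95%) in the high dose arrays and 342 at least 2-fold apart. Read in the left-out arrays, those 995 genes showed almost no dose difference. The median of high minus low was 0.84 and 0.81 in replicates 1 and 3 and 0.017 in replicate 2 for the 449 genes, and −0.83 and −0.78 against −0.0058 for the 546. The genes were chosen on replicates 1 and 3, so their differences there are large by selection and only replicate 2 is read outside the choice. Replicate 2 had the same direction in 58.1% and 51.5% of them. Over all genes the high and low arrays of replicate 2 differed at least 2-fold in 66 genes, against 601 and 488 in replicates 1 and 3. The high dose array of replicate 2 differed by that much from control 2 in 409 genes, and the low dose array in 274. Over all genes, then, the arrays of the doses lay closer together in replicate 2 than in 1 and 3, and why replicate 2 differs was not tested.

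Genes with the largest dose difference in replicates 1 and 3, named after their values were seen, show this array by array. IFITM10 was at 7.51, 2.35 and 6.86 at the high dose and at background at the low dose, with 2.87, 2.34 and 3.03. ATP6V0D2, a proton pump subunit, was at 5.73, 2.26 and 5.84 against 2.25, 2.25 and 2.25. In both genes high dose replicate 2 was at the level of the controls. CLDN2, the pore-forming claudin of the proximal tubule, was at 5.28, 10.01 and 5.05 at the high dose, 8.16, 10.34 and 7.84 at the low dose, and 11.22, 10.67 and 10.55 in the controls. SERPINA6, a corticosteroid-binding globulin, was at 6.72, 10.15 and 7.38 at the high dose but at 9.33, 9.70 and 9.83 at the low dose and 6.81, 7.30 and 6.74 in the controls. For SERPINA6 the low dose arrays and high dose replicate 2 were raised together, while high dose replicates 1 and 3 were near the controls.

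**Figure D5:**
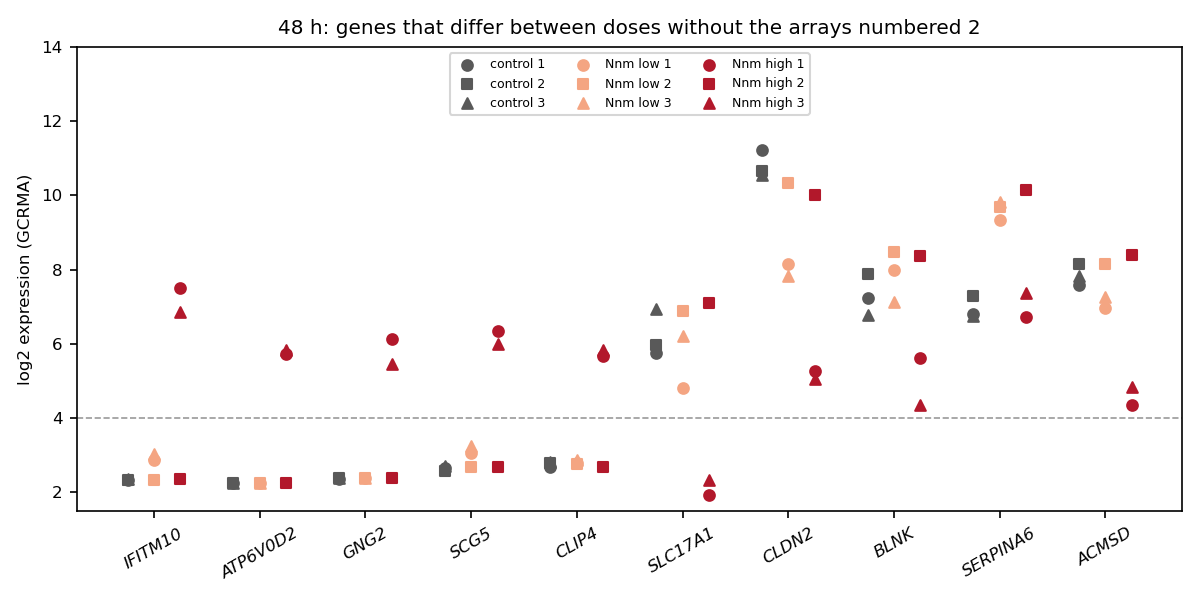
Deposited log2 expression of the 5 genes most higher and the 5 most lower at the high dose in the fit without arrays numbered 2, in control (grey), Nnm low (light) and Nnm high (dark) arrays at 48 h, replicates 1 (circles), 2 (squares) and 3 (triangles), with the dashed line at log2 4. High dose replicate 2 lies nearer to low dose replicate 2 than to the other high dose arrays in all 10 genes, as in IFITM10 at 2.35 and CLDN2 at 10.01.

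Mitosis had the largest share of members called between the doses among the lists. Without the arrays numbered 2, 24 of 30 tested members were lower at the high dose and 0 were higher, beside 4.95% and 4.07% of all genes, with a median of −0.999 for high minus low. By array, the median of the 30 genes relative to the control mean was 0.33, 0.29 and 0.80 in the low dose replicates. It was −0.79, 0.37 and −0.016 in the high dose replicates, so replicate 2 was the high dose array that stood with the low dose. KIF11 was at 9.39, 10.67 and 10.05 at the high dose. With all arrays its difference of −0.60 was not called (limma adjusted p = 0.874). For the mitochondrial lists the same setting called lower at the high dose 0 of 27 complex I genes, 1 of 21 genes of complexes II to IV, 1 of 14 ATP synthase genes, 3 of 36 mitochondrial ribosome genes and 4 of 19 citric acid cycle genes, beside 4.95% of all genes. It called 0 of them higher.

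Time was examined by asking whether the low dose response at 48 h differed from that at 24 h, each against the controls of its time. In limma 0 genes were called, 577 (5.23%) had an unadjusted p under 0.05, and the smallest adjusted p was 0.312. Without a filter 2 genes were called, with the replicate block 5, and without the arrays numbered 2 49. The 5 were AURKB, CDC25A, FABP5, SRD5A1 and TACR2. TXNIP, named after its value was seen, rose by 2.79 at 24 h and 6.18 at 48 h, a difference of 3.39 ± 0.74 that was not called (limma adjusted p = 0.384, 95% interval 1.86 to 4.93). SLC16A14 rose by 5.58 and 6.04 at 24 and 48 h. Of the mitosis genes 4 fell and 0 rose at 24 h, beside 9.13% and 9.39% of all genes, with a list median of −0.28, and 5 rose and 0 fell at 48 h, with a median of 0.45. Of the respiratory complex I genes 6 fell at 24 h and 10 at 48 h.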

How the data were processed

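RNA of HK-2 cultures was measured on Affymetrix arrays. Per the submitters' processing notes the values were made with GCRMA, and the deposited log2 values, 1 for every array and probe set, were used as they stood. GCRMA pulls unexpressed probe sets to a common floor, which compresses changes near background. Of 54675 probe sets 41091 carried 1 gene symbol in the platform annotation, and for each of 19775 genes the probe set of highest overall mean was taken. A gene was tested when it exceeded log2 4 on at least 3 of the 30 arrays of Nnm, Kbr and their controls. Group means were fitted with limma 3.58.1 in R 4.3.3 with empirical Bayes moderation and Benjamini-Hochberg adjustment, and the procedure was tested on simulated data. Tables and figures used Python 3.11.15, pandas 2.3.3, numpy 2.4.6, scipy 1.17.1 and matplotlib 3.10.9. The number of arrays, 3 per group, limits the precision.

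The labels call the replicates biological, and arrays with the same number deviated together. The r of residuals was 0.413, 0.420 and 0.495 for the 3 low dose pairs, and 0.139 to 0.673 over 24 pairs of the family. The replicate number was therefore taken to pair the arrays. The fit with it as a block is given for many of the counts that it moved, but not for all. The genes named were the 15 largest rises and 15 largest falls without overlap, up to 4 called members per list, all detected arrestin and SLC16 members, and the 5 genes closest to and farthest from the other replicates in replicate 2. The 41 lists held 870 genes, of which 711 were tested. The members, lists and rules were chosen with earlier results of these data known. Alternatives were other filters, probe set choices, quantile normalization, limma's trend option, all arrays or only the arrays compared in the fit, the block, and leaving out arrays.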

Additional observations from a re-analysis of the deposited data

Results flagged for a closer look

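In 3 genes named in the report every low dose array moved 1 way against its same-numbered control at 48 h and the other way at 24 h. COL4A3 changed by −2.09 at 48 h and by 0.28 at 24 h, and the difference between the times was −2.37 ± 0.58 (limma adjusted p = 0.609). AURKB, a mitotic kinase gene, changed by 0.77 and −0.37, a difference of 1.14 ± 0.33 (limma adjusted p = 0.618) that was called only with the replicate block or without arrays numbered 2. The helicase gene BLM changed by 0.78 and −0.43, a difference of 1.21 ± 0.33 (limma adjusted p = 0.609). The 48 h calls of AURKB and BLM were lost without Nnm low replicate 1 or 3 or control replicate 1 or 2 (limma adjusted p from 0.0711 to 0.179). At the high dose and 48 h COL4A3 was at 2.52, 4.52 and 2.52, the second of these near the control mean of 4.91.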

How the results depend on the processing

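The count of 1558 genes called against control became 647 with only the 6 arrays compared, 2948 with the replicate block, 3118 without the Nnm and control arrays numbered 2, and 3591 without the Nnm arrays numbered 2 with controls kept, a setting chosen after seeing the data. Leaving out 1 array gave 566 to 2114. The other settings gave 1160 to 1642. Of the genes called, 10 changed sign with the mean of all probe sets and 19 without probe sets of the _x_at and _s_at kinds, and 0 in the other settings. For high minus low, 0 became 2 without a filter, 12 with all arrays, 995 without the arrays numbered 2 and 1031 with controls kept, and 0 to 570 with 1 array left out. For the time difference, 0 became 2 without a filter, 5 with the replicate block, 49 and 235 in the 2 settings without arrays numbered 2, and 0 to 5 with 1 array left out. Why these counts moved was not tested.

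Of the 144 named genes called, 144 kept the call with the replicate block, 142 without the arrays numbered 2 (all but LRRC49 and NR1D2) and 64 with only the 6 arrays compared, and 95 lost it when at least 1 array was left out. The genes not called, ARRDC2 and MLX, changed sign. With 1 array left out they ranged from −0.49 to 0.0068 and from −0.21 to 0.0011. ARRDC2 was at 0.0068 without Nnm low replicate 2 or with the Nnm arrays numbered 2 left out and controls kept. MLX was at 0.0013 without the arrays numbered 2, and at 0.0011 without Nnm low replicate 2 or with controls kept.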

Other observations

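Of 24 tested immediate early and ERK feedback genes 3 rose (12.5%, beside 8.39% of all genes) and 1 fell (4.17%, beside 5.73%), with DUSP1, a MAP kinase phosphatase gene, higher by 0.92 ± 0.21 and MYC lower at −0.63 ± 0.18. Of 10 tested genes on a list that mixes targets of nuclear receptors and of the aryl hydrocarbon receptor 3 rose (30%) and 1 fell (10%), beside 8.39% and 5.73% of all genes. TIPARP, a target of the aryl hydrocarbon receptor, was at 10.73, 11.40 and 10.52 against 12.10, 12.14 and 12.18, a change of −1.26 ± 0.27. LAMB3, a laminin chain gene, was at 10.01, 7.28 and 9.96 against 6.87, 7.02 and 7.36, so that replicate 2 lay inside the control range. Its rise of 2.00 ± 0.61 (limma adjusted p = 0.0301) was not called without Nnm low replicate 1 or 3 (0.186 and 0.156) or any control (0.0608 to 0.0929). Of 26 tested lysosome and autophagy genes 1 rose and 0 fell at the low dose, beside 8.39% and 5.73% of all genes. With the replicate block 3 rose and 4 fell, beside 14.9% and 11.8%. Without the arrays numbered 2, 7 of the 26 were higher at the high than at the low dose, beside 4.07% of all genes.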
